A study of Mus musculus with 17 samples.

Results

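Primordial germ cells, the embryonic precursors of sperm and eggs, settle in the embryonic gonad and within days begin a testicular or an ovarian course. The change described here is that between 3 libraries of germ cells from the testis at E13.5 (embryonic day), coded MC, and 3 libraries of non-irradiated germ cells at E11.5, and covers 11131 of the 23234 genes present in the tables of both days. A gene was kept where its FPKM (fragments per kilobase, corrected for transcript length and library size) was at least 1 in at least 3 of these 6 libraries. The non-irradiated E13.5 female germ cells, coded FC and also with 3 libraries, stand in the same table as MC and were set against it. All samples were purified mouse primordial germ cells profiled by RNA sequencing after removal of ribosomal RNA, 17 libraries in all, and the labels give no strain, genotype or sorting marker, nor the sex of the E11.5 embryos.

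Germ cells arriving in the gonad switch on a shared set of germline genes, often called licensing, which includes the RNA-binding proteins that let them respond to the gonad. In the testis, Sertoli cells and other somatic cells then steer the germ cells towards mitotic arrest, with Nodal signalling active early and the RNA-binding protein Nanos2 as a male determinant. In the ovary, BMP signalling and retinoic acid lead the same cells into meiosis, with Stra8 as its gatekeeper.

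The male labels conflict. The titles and condition entries call MC irradiated and the other male set, MIR, non-irradiated, whereas the codes, read like the female codes FC and FIR, say the opposite; MC is read here as non-irradiated. The gene Amh, made by Sertoli cells, was at 846, 252 and 876 FPKM in the MIR libraries, and their summed Sertoli marker level was 6996, 2008 and 6712 FPKM, against 171 to 273 FPKM in MC. Their germ cell markers summed to 1450, 2754 and 1927 FPKM, against 4149 to 4488 FPKM in MC and 4127 to 4860 FPKM at E11.5. With MIR in place of MC, 2210 of 12004 tested genes would be called higher than at E11.5 and 1239 lower. These counts over all genes, not the MC shares, are the ones to set beside each MIR list count. For many lists the counts with both sets are given below. The Y-linked genes Ddx3y and Eif2s3y were present in every MC library and every E11.5 library. Ddx3y had 8.34, 6.54 and 9.15 FPKM in MC, at most 0.0122 FPKM in FC, and 10.9, 7.37 and 7.59 FPKM at E11.5. Depth, estimated from the spacing of the lowest values because totals are not given, was 13.3 to 17.2 M fragments in MC, 13.8 to 26.2 in FC and 11.1 to 18.7 at E11.5.

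The embryonic days stand in separate tables, so day and table cannot be told apart and no significance test was made between them. Libraries were scaled by the median of their ratios, and a difference is the mean log2(scaled FPKM + 1) in MC minus that at E11.5. A gene is called higher or lower where the 3 MC values and the 3 E11.5 values do not overlap and the difference is at least 1, a 2-fold change on this scale. By this rule 708 genes (6.36%) were higher in MC and 1071 (9.62%) were lower. Without the condition on size, 3602 genes (32.4%) lay wholly above E11.5 and 3456 (31.0%) wholly below. The values as deposited, without scaling, put the median gene 0.12 higher in MC, and the calls then split into 938 higher and 852 lower. Scaling by the sum of FPKM gave 1035 and 775, and scaling by housekeeping genes gave 1210 and 695. The differences below are relative to the median gene.

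Transcript length moved with the difference. Among the shortest decile of genes, up to 1181 bases, the median difference was -0.71, with 4.01% called higher and 30.4% called lower. Among the longest decile, from 6526 bases, it was 0.53, with 16.0% higher and 2.29% lower. The same deciles differed by -0.01 and -0.10 between MC and FC, which were in 1 table, and by 0.26 and -0.17 between E11.5 replicates 3 and 1. The plot of differences by length shows this trend beside the smaller range between the sexes. An added alternative subtracts the running median of genes of similar length and calls 522 genes (4.99%) higher and 723 (6.91%) lower of 10462 with a known length. The part of length in the calls that this removes was not tested.

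**Figure D1:**
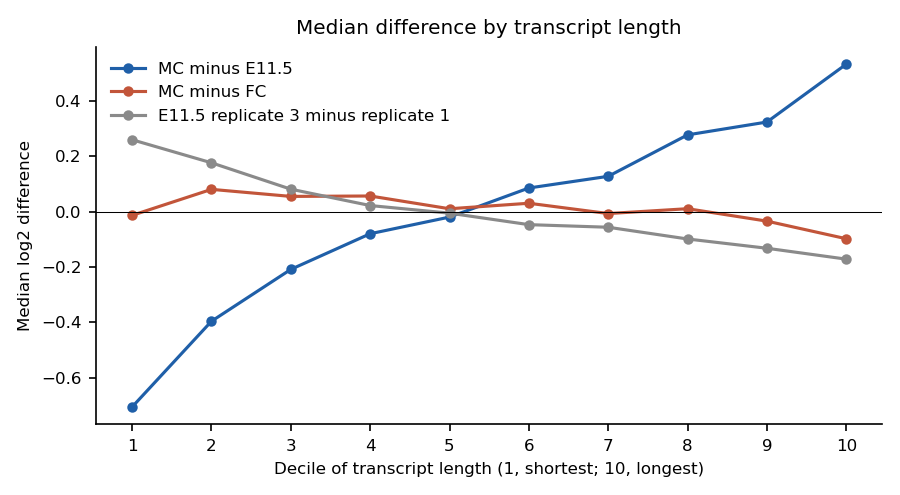
Median log2 difference of genes by decile of transcript length (x axis, 1 the shortest), for MC minus E11.5, MC minus FC and E11.5 replicate 3 minus replicate 1 (y axis, log2). MC minus E11.5 runs from -0.71 to 0.53, whereas MC minus FC stays between -0.10 and 0.08.

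Germline licensing genes were higher in the testis at E13.5 than at E11.5. Of the 27 licensing genes that passed the filter, out of 30 listed, 17 were called higher in MC and none lower, with a median difference of 1.50, against 6.36% higher and a median of 0.01 over all genes. After centring on length 19 were higher and the median was 1.49. Of the 27, 1 gene had all E11.5 values under 1 FPKM and so passed the filter through MC alone; the 17 higher genes are among the other 26. In these bulk libraries fewer cells of a type and less RNA per cell cannot be told apart. The plot of called genes by list gives this beside the other lists.

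**Figure D2:**
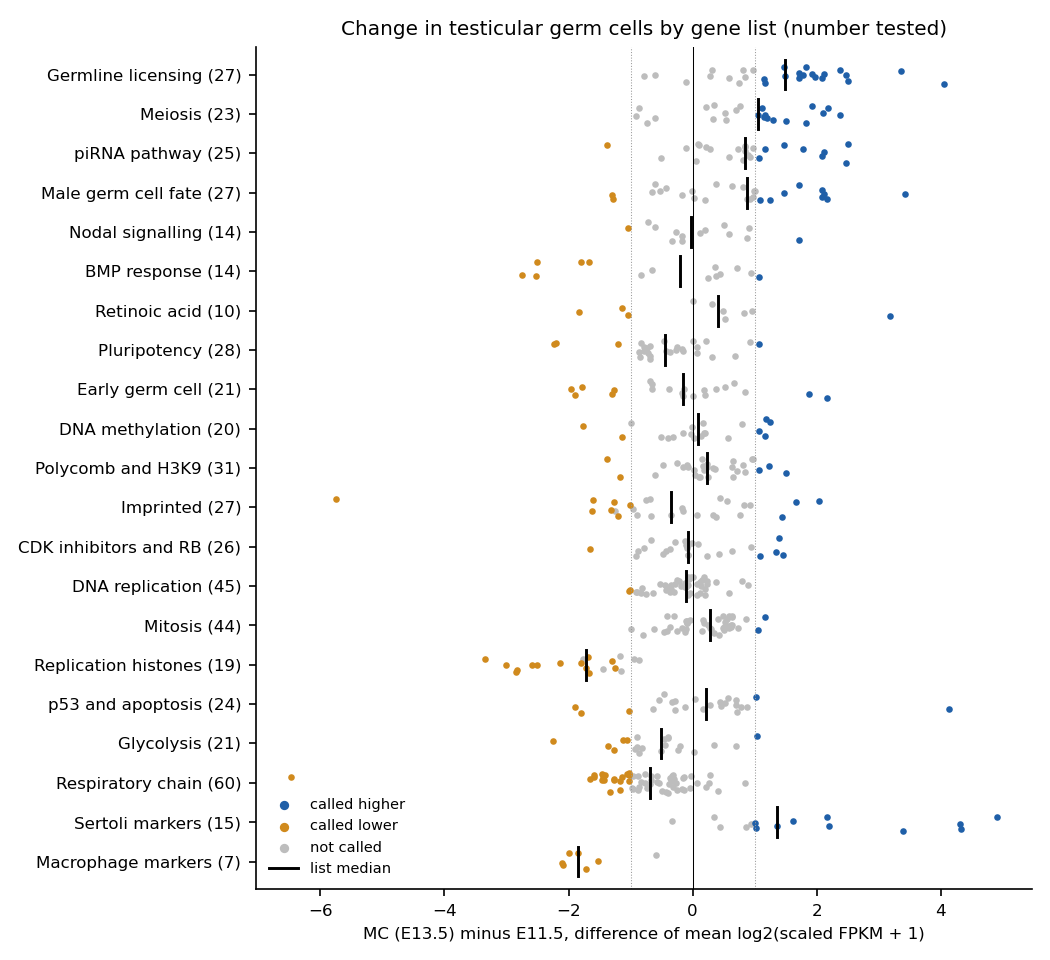
Difference of single genes between MC and E11.5 (x axis, log2; 1 dot a gene) for each list with its number tested (down the page), with called genes in colour, list medians as black bars and dotted lines at -1 and 1. The medians are 1.50 for licensing, 1.06 for meiosis and -1.71 for replication histones.

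The promoters of this group are shown because 17 of its members were higher in the same libraries. Each line gives 300 bases of GRCm38, from 250 before the start of the gene to 50 after it, on the strand of the gene, from the RefSeq table. Capitals mark CACGTG, the core of the E-box bound by MYC, MAX and related factors, and TCCCGC or its reverse complement GCGGGA, the core of the E2F site. Dazl is at chr17:50293571-50293870 on the minus strand, Ddx4 at chr13:112652261-112652560 on the minus strand, Brdt at chr5:107330944-107331243 on the plus strand, Sycp1 at chr3:102936051-102936350 on the minus strand and Tdrd1 at chr19:56825959-56826258 on the plus strand.
Dazl: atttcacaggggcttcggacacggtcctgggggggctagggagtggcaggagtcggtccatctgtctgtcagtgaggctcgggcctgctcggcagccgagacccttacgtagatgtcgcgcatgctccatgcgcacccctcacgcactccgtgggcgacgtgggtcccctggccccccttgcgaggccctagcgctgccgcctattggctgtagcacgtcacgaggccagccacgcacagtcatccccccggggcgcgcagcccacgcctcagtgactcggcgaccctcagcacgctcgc
Ddx4: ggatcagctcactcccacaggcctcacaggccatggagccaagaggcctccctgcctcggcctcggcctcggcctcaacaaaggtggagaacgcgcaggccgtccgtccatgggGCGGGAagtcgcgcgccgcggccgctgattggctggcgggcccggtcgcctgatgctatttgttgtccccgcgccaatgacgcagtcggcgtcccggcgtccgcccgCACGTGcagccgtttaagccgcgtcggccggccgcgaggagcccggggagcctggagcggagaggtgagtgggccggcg
Brdt: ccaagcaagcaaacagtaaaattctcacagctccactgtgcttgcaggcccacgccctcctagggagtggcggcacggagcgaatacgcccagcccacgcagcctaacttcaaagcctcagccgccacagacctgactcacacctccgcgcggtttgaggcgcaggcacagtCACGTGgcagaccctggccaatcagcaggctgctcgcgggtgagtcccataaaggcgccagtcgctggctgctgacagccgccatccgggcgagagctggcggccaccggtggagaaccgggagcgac
Sycp1: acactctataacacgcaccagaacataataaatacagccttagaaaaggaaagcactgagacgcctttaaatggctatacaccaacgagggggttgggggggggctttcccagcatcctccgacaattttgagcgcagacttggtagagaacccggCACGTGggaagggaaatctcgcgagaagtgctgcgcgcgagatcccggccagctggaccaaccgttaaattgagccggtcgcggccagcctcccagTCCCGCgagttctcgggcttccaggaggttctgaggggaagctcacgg
Tdrd1: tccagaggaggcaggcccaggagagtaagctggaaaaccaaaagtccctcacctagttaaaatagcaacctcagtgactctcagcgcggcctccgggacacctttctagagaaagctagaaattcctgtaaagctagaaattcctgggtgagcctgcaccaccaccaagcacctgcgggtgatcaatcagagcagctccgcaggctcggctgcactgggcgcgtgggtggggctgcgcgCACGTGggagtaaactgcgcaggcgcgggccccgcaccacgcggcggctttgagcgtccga

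The letters CACGTG stood 29 bases before the start of Ddx4, 78 before Brdt, 94 before Sycp1 and 11 before Tdrd1. Neither motif was in the window of Dazl. Of the 25 tested licensing genes with a promoter in the table, 13 (52.0%) held CACGTG, against 11.1% of the 8359 promoters of tested genes and 7.24% of all 27025. It was in 10 of the 16 promoters (62.5%) of licensing genes called higher, and in 13.1% of the promoters of all genes called higher. TCCCGC on either strand was in 12 of the 25 (48.0%), against 37.7% of tested genes. Their median number of CG pairs was 20, against 22 for tested genes and 7 for all promoters. CACGTG is its own reverse complement and overlaps no letter of TCCCGC in these windows.

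Dazl, an RNA-binding protein without which germ cells do not respond to the gonad, had 745, 726 and 800.5 FPKM in MC, 751, 792 and 880.1 FPKM in FC, and 58.5, 12.4 and 92.6 FPKM at E11.5. Its difference from E11.5 was 4.05 ± 1.04 (pooled SD on the log2 scale, n = 3 each). Every MC value exceeded every E11.5 value, E11.5 replicate 2 was the lowest library, and the difference was 3.21 without it. Ddx4, the germ cell RNA helicase Vasa, had 272, 318 and 321 FPKM in MC and 60.8, 29.1 and 63.1 FPKM at E11.5, a difference of 2.50 ± 0.45. Brdt, a bromodomain protein of the germline, had 12.9, 23.2 and 24.4 FPKM in MC and 1.21, 0.52 and 0.954 FPKM at E11.5, a difference of 3.36 ± 0.40. Mael, which acts in piRNA biogenesis and transposon silencing, had 85.3, 106 and 102 FPKM in MC and 22.6, 14.1 and 26 FPKM at E11.5, a difference of 2.09 ± 0.33. These 4 genes did not overlap between the days.

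Stk31, a germ cell kinase-like protein, and Tuba3b, a testis alpha-tubulin, were also wholly above E11.5, by 1.97 and 2.47. E11.5 replicate 2 was the lowest of the E11.5 libraries for 22 of the 27 licensing genes, and without that library 15 were called higher. In that replicate the macrophage markers summed to 83.5 FPKM, against 21.1 and 35.5 FPKM in replicates 1 and 3, and the erythroid markers to 2.30 FPKM, against 305 and 379 FPKM; their part in the licensing values was not tested. Taking MIR in place of MC, 4 of 26 licensing genes were higher and 1 lower, where all genes had 2210 and 1239 of 12004. With MIR, Dazl was 3.09, Ddx4 1.60 and Brdt 1.77 above E11.5.

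Most licensing genes, like most genes, did not pass the test between the sexes at E13.5. Of 12850 genes tested with limma over the 12 E13.5 libraries, 2419 (18.8%) were higher in MC than in FC and 2070 (16.1%) were lower. This comparison used the values as deposited, within 1 table; with quantile normalization 1950 were higher and 1948 lower, and with median of ratios scaling 2032 and 2310. Because both sexes are set against the same E11.5 libraries, MC minus FC is also the difference between the testicular and the ovarian change. Among 28 licensing genes, 2 were higher in MC and 8 lower, and 18 did not pass. Of all 12850 genes, 8361 did not pass, a share near that of the licensing genes. Dazl differed by -0.09 (adjusted p = 0.791, limma), Ddx4 by -0.12 (adjusted p = 0.668) and Brdt by 0.01 (adjusted p = 0.983). Mael was lower in MC, with a difference of -0.94 (adjusted p = 0.0197), as was Hormad1, a meiotic chromosome axis protein, with -1.03 (adjusted p = 0.0037). The Mael call was lost without FC replicate 2 or 3 or MC replicate 1 (adjusted p = 0.0566, 0.0712 and 0.0701).

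**Figure D3:**
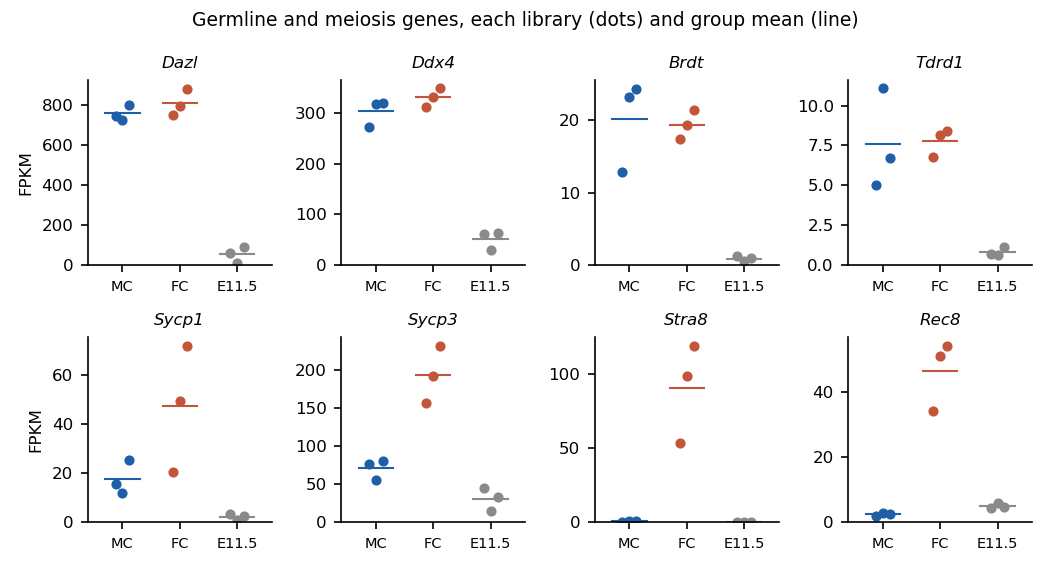
FPKM (y axes, linear from 0) of 8 germline and meiosis genes in MC, FC and E11.5 libraries (x axes), with 1 dot a library and the group mean as a line. Dazl and Ddx4 stand at like heights in MC and FC and lower at E11.5, whereas Stra8 is high in FC alone.

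Many meiotic genes were higher in the testis than at E11.5, and many were lower there than in the ovary. Of 23 tested meiosis genes, 12 (52.2%) were called higher in MC and none lower, against 6.36% and 9.62% of all genes. The median difference was 1.06, and 11 were higher after centring on length. E11.5 replicate 2 was the lowest E11.5 library for 15 of the 23. Between the sexes, 18 of 30 were lower in MC than in FC and none was higher, against 16.1% and 18.8% of all genes. Tex12, a component of the synaptonemal complex, had 40.8, 38 and 46.8 FPKM in MC, 56.6, 74.1 and 88.9 FPKM in FC, and 8.59, 4.16 and 12.2 FPKM at E11.5. The MC values of Tex12 lay between the other groups without overlap. Sycp1, the transverse filament of the synaptonemal complex, had 15.9, 12 and 25.3 FPKM in MC and 3.49, 0.955 and 2.76 FPKM at E11.5, a difference of 2.38 ± 0.58. Sycp3, a lateral element protein, differed by 1.17 from E11.5 and by -1.43 from FC (adjusted p = 0.0024), with 76.5, 55.8 and 80.9 FPKM in MC and 45.5, 14.3 and 33.6 FPKM at E11.5; without E11.5 replicate 2 its difference from E11.5 was 0.70 and short of the rule. Smc1b, a meiotic cohesin subunit, differed by 1.83 from E11.5 and by -1.23 from FC (adjusted p = 0.0066). Spo11, which makes the meiotic double-strand breaks, differed by 1.20 from E11.5 and by -0.68 from FC (adjusted p = 0.0309), a call lost when any FC library, or MC replicate 1 or 2, was left out (adjusted p from 0.0565 to 0.108). Tex11, an X-linked meiosis gene, differed by 2.11 from E11.5 and did not pass against FC (difference 0.37, adjusted p = 0.301).

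Genes of meiotic entry had other patterns. Stra8 had 0.275, 0.866 and 0.977 FPKM in MC, 53.7, 98.8 and 119 FPKM in FC, and 0.0945, 0.0392 and 0 FPKM at E11.5, so that it did not pass the filter in the testis comparison. It was lower in MC than in FC, with a difference of -5.70 ± 0.36 (SE, n = 3 each, limma adjusted p = 6.6e-07). All MC values of Stra8 were under 1 FPKM, so it entered that fit without MC, through libraries where it was high. Rec8, a meiotic cohesin, had 1.86, 2.86 and 2.64 FPKM in MC, 34.1, 51.1 and 54.1 FPKM in FC, and 4.57, 5.93 and 4.68 FPKM at E11.5. Its MC values lay below all E11.5 values and its FC values above them, and MC minus FC was -3.76 ± 0.19 (adjusted p = 7.4e-08). Dmc1, the meiotic recombinase, differed by 0.53 from E11.5, short of the rule, and by -1.77 from FC (adjusted p = 0.00042). For MIR libraries, 1 of 23 meiosis genes was higher than at E11.5 and 2 were lower, where all genes had 2210 and 1239 of 12004.

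Genes of the piRNA pathway, which silences transposons in the germline, were partly higher. Of 25 tested, 8 (32.0%) were higher in MC and 1 (4.0%) was lower, against 6.36% and 9.62% of all genes. The median difference was 0.85, and after centring on length 7 were higher and 2 lower. E11.5 replicate 2 was the lowest E11.5 library for 17 of the 25. With MIR in place of MC, 4 of 23 piRNA genes were higher than at E11.5 and 1 lower, with a median of 0.09. All genes then had 2210 and 1239 of 12004. The calls of Tdrd1, Mov10l1 and Tdrd5 given below were lost with MIR, and that of Tdrd7 was kept. Tdrd7, a Tudor protein of germ granules, had 13.6, 19.6 and 19.6 FPKM in MC and 2.65, 1.96 and 1.7 FPKM at E11.5, a difference of 2.48 ± 0.26. Tdrd1, the Tudor partner of Mili, had 5.01, 11.1 and 6.73 FPKM in MC and 0.681, 0.607 and 1.13 FPKM at E11.5, a difference of 2.12 ± 0.39. Mov10l1, the helicase that starts piRNA processing, was 1.79 higher, and Tdrd5 1.48. Tdrd5 was also higher in MC than in FC, by 0.53 (adjusted p = 0.0239), a call lost when any FC library or MC replicate 2 or 3 was left out (adjusted p from 0.0546 to 0.105). Piwil2, which encodes Mili, was at 44, 55.4 and 53.4 FPKM in MC and 23.7, 21.6 and 24.4 FPKM at E11.5, just under the size rule with a difference of 0.97. Piwil4, which encodes Miwi2 and acts later in male germ cells, reached 1.2 to 1.5 FPKM in MC. Morc1, needed for transposon silencing in male germ cells, was the member that was lower, with 8.31, 8.13 and 10 FPKM in MC and 23.6, 23.6 and 20.5 FPKM at E11.5 (difference -1.38).

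The male fate list was higher in part. Of 27 tested, 9 (33.3%) were higher in MC and 2 (7.41%) lower, against 6.36% and 9.62% of all genes. The median was 0.89. After centring on length 8 were higher and 1 lower, and without E11.5 replicate 3 the counts were 14 and 1. Of the 22 with a value of at least 1 FPKM in both groups, 7 were higher and 1 lower; the others passed the filter through 1 group alone. For MIR libraries 2 of 24 were higher and 6 lower, with a median of -0.18, where all genes had 2210 and 1239 of 12004. Against FC, 9 of 26 were higher in MC and 2 lower, where all genes had 18.8% and 16.1%. Sertoli markers, given below, summed to more in MC than in FC or at E11.5, and their part in these differences was not tested. The largest difference was that of Bnc2, a zinc finger protein, which had 7.56, 20.8 and 14.3 FPKM in MC, 3.48, 3.98 and 2.81 FPKM in FC, and 0.255, 0.400 and 0.132 FPKM at E11.5. Nanos2 had 1.73, 5.59 and 3.74 FPKM in MC, at most 0.0875 FPKM in FC, and was listed at 0 in all E11.5 libraries. It exceeded FC by 2.08 ± 0.25 (adjusted p = 7.9e-05), but it entered that fit only through the 3 MC libraries and did not pass the filter when any of them was left out. It lies at chr7:18987400-18988962 (GRCm38) and did not pass the filter with MIR in place of MC. Dnmt3l, the cofactor of de novo DNA methylation in later male germ cells, stayed at or under 0.145 FPKM in MC.

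The Nodal targets Lefty1 and Lefty2 were highest in MC, lower at E11.5 and lowest in FC. Lefty1, a secreted inhibitor and target of Nodal at chr1:180935022-180938400, had 57.1, 71.3 and 65.5 FPKM in MC, 0.386, 0.399 and 0.237 FPKM in FC, and 15.1, 17.3 and 19.8 FPKM at E11.5. The MC libraries stood wholly above E11.5 and the FC libraries wholly below it, and its differences were 1.72 ± 0.17 from E11.5 (pooled SD) and 5.61 ± 0.19 from FC (SE, adjusted p = 2.6e-09). Lefty2, another inhibitor of this kind, had 159, 139 and 148 FPKM in MC, 0.957, 1.02 and 0.676 FPKM in FC, and 75.9, 54 and 96.2 FPKM at E11.5. It differed by 0.89 from E11.5 and exceeded FC by 6.32 ± 0.24 (adjusted p = 6.5e-09).

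The ligand Nodal had 23.3, 23 and 19.09 FPKM in MC, 3.63, 2.95 and 2.84 FPKM in FC, and 13.4, 14.7 and 25.9 FPKM at E11.5. Its MC and E11.5 values overlapped, and its difference between the sexes, 2.46 ± 0.16 (adjusted p = 8.5e-07), went with low values in FC. Tdgf1, the Nodal co-receptor Cripto, likewise had 37.9, 30.4 and 32.6 FPKM in MC, 2.16, 1.42 and 1.77 FPKM in FC, and 33, 35.3 and 36 FPKM at E11.5. Foxh1, a partner of the Smad proteins, differed by -1.05 from E11.5, a call lost after centring on length, under each other scaling (-0.97 to -0.81) and without E11.5 replicate 2 (-0.92) or MC replicate 2 (-0.96) or 3 (-0.98), and did not pass against FC (difference -0.18, adjusted p = 0.552). In all, 1 of 14 tested Nodal pathway genes was higher than at E11.5 and 1 lower, shares near the 6.36% and 9.62% of all genes. Set against FC, 5 of 14 were higher and 3 lower, where all genes had 18.8% and 16.1%. Against E11.5, quantile normalization gave 2 higher and none lower, the other scalings 3 and none, and leaving out E11.5 replicate 3 gave 2 and 1. With MIR in place of MC, the differences from E11.5 were 0.50 for Lefty1 and -0.74 for Lefty2.

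**Figure D4:**
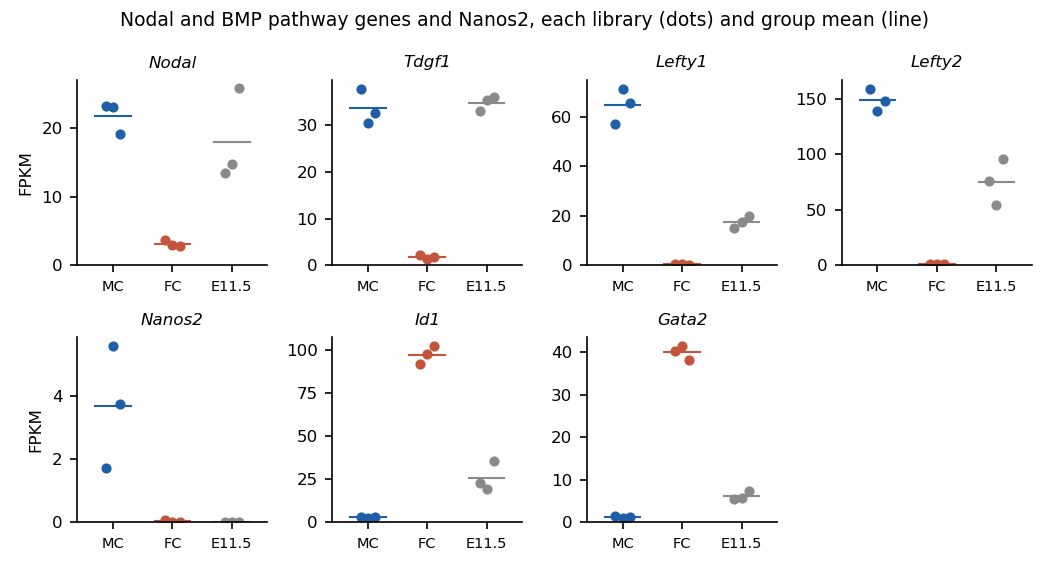
FPKM (y axes, linear from 0) of 7 genes in MC, FC and E11.5 libraries (x axes), with 1 dot a library and the group mean as a line. Lefty1 and Lefty2 are highest in MC and near or under 1 FPKM in FC, and Id1 and Gata2 are lowest in MC.

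Several BMP response genes were lower in the testis. Of 14 tested, 5 (35.7%) were lower in MC than at E11.5 and 1 (7.14%) was higher, against 9.62% and 6.36% of all genes. After centring on length 5 were lower and none was higher. Against FC, 11 of 17 were lower in MC and 2 were higher, where all genes had 16.1% and 18.8%. Id1, an inhibitor of basic helix-loop-helix factors and a direct BMP target at chr2:152736251-152737410, had 3.4, 2.82 and 3.38 FPKM in MC, 91.5, 97.3 and 102 FPKM in FC, and 22.9, 19.3 and 35.9 FPKM at E11.5. The groups did not overlap in any pair, and MC minus FC was -4.55 ± 0.38 (adjusted p = 5.3e-06). Gata2, a transcription factor of early female germ cells, had 1.45, 0.938 and 1.17 FPKM in MC, 40.3, 41.5 and 38.3 FPKM in FC, and 5.54, 5.76 and 7.31 FPKM at E11.5, and MC minus FC was -4.24 ± 0.19 (adjusted p = 3.4e-08). Msx2, a homeobox factor induced by BMP, had 4.11, 1.81 and 1.85 FPKM in MC, 20.2, 22.7 and 20.7 FPKM in FC, and 14.9, 21.5 and 16.5 FPKM at E11.5; its FC values overlapped those at E11.5. Id2 differed by -1.66 from E11.5 and by -2.68 from FC (adjusted p = 3.9e-06). Id3 differed by -2.50 from E11.5 and by -1.79 from FC (adjusted p = 5.9e-05). In MIR 4 of 15 were higher than at E11.5 and 3 lower, where all genes had 2210 and 1239 of 12004. The MIR differences from E11.5 were -0.15 for Id1, -1.74 for Gata2, -1.67 for Id3 and 0.45 for Id2.

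Among genes of retinoic acid handling, 1 of 10 tested was higher in MC and 3 were lower, against 6.36% and 9.62% of all genes. Scaling by housekeeping genes instead gave 3 higher and 1 lower. Scaling by the sum gave 2 higher and 1 lower, the values as deposited gave 2 and 2, and 2 were higher without E11.5 replicate 2 or MC replicate 1. In MIR 6 of 12 were higher than at E11.5 and 3 lower, where all genes had 2210 and 1239 of 12004. Aldh1a1, a retinaldehyde dehydrogenase that Sertoli cells also express, had 9.63, 20.7 and 19.5 FPKM in MC, 2.16, 2.27 and 2.25 FPKM in FC, and 1.52, 0.268 and 0.632 FPKM at E11.5. Crabp1, which binds retinoic acid in the cytoplasm, differed by -1.84 from E11.5 and by -1.80 from FC (adjusted p = 0.00049). The receptor gene Rarg was lower than at E11.5 (difference -1.14, not called with housekeeping or sum scaling), and Rara was just under the size rule (0.96).

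Pluripotency genes, like most genes, were for the most part within 2-fold of E11.5. Of 28 tested, 1 was higher in MC and 3 were lower, with a median difference of -0.44 and 17 wholly below E11.5. Over all genes, 6.36% were higher, 9.62% lower and 31.0% wholly below. After centring on length none of the 28 was higher and 5 were lower, against 4.99% and 6.91% of all genes. Pou5f1, which encodes Oct4, had 882, 725 and 762 FPKM in MC and 1272, 1366 and 1205 FPKM at E11.5, a difference of -0.83. Nanog had 96.3, 90.6 and 94.6 FPKM in MC and 148, 148 and 123 FPKM at E11.5, a difference of -0.69. Sox2 had 104, 85.4 and 88.2 FPKM in MC and 190.4, 207 and 191 FPKM at E11.5, a difference of -1.21 that met the rule, though not with quantile or housekeeping scaling. Klf2, a factor of naive pluripotency, and Nr0b1, the orphan receptor Dax1, were also lower, with differences of -2.23 and -2.19. The member that was higher was Tet1, a dioxygenase that oxidizes 5-methylcytosine, with 38.7, 58.2 and 45 FPKM in MC, 28.2, 23.8 and 23.2 FPKM in FC, and 21.4, 19.4 and 19 FPKM at E11.5. Its difference from E11.5 was 1.07, or 0.45 after centring on length and 0.92 without MC replicate 2, and it exceeded FC by 0.87 (adjusted p = 0.0034). In MIR libraries 18 pluripotency genes were lower than at E11.5.

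Genes that mark newly formed primordial germ cells were lower in 5 of 21 cases and higher in 2, against 9.62% and 6.36% of all genes. The median was -0.16. With MIR in place of MC, 9 of 22 were lower and 3 higher, with a median of -0.88, where all genes had 1239 and 2210 of 12004. Tfap2c, a transcription factor of germ cell specification, had 33.5, 21.6 and 23.7 FPKM in MC, 62.1, 58.2 and 55.4 FPKM in FC, and 72.1, 99.7 and 81.4 FPKM at E11.5. Its difference from FC was -1.15 (adjusted p = 0.0026). Ifitm3, the surface protein Fragilis, differed by -1.95 from E11.5, and Alpl, the alkaline phosphatase used to stain these cells, by -1.90. Nanos3, which protects migrating germ cells from death, differed by -1.31, or by -0.51 after centring on length. Prdm1 and Prdm14, 2 regulators of germ cell specification, differed by 0.67 and 0.01, Kit by 0.37 and Dppa3, also called Stella, by 0.21. Dmrt1, a transcription factor of germ and Sertoli cells, had 60.4, 75.1 and 70.1 FPKM in MC, 58.2, 64.1 and 61.3 FPKM in FC, and 13.2, 9.58 and 17.8 FPKM at E11.5. Rhox6, an X-linked homeobox gene of germ cells, had 108, 48.8 and 68 FPKM in MC, 334, 333 and 337 FPKM in FC, and 568, 581 and 797 FPKM at E11.5, and MC minus FC was -2.22 (adjusted p = 0.00015).

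Of 20 tested genes of DNA methylation, 4 were higher and 2 lower in MC, against 6.36% and 9.62% of all genes. After centring on length 1 was higher and 1 lower, against 4.99% and 6.91% of all genes. The lower count, and the counts after centring, were near the shares of all genes. Uhrf1, which guides Dnmt1 to newly replicated DNA, had 14.2, 20.3 and 17.9 FPKM in MC and 7.42, 7.01 and 5.06 FPKM at E11.5, a difference of 1.19 and a call kept after centring. Hells, a chromatin remodeller needed for DNA methylation, was 1.26 higher, and Dnmt3b, a de novo methyltransferase, 1.16 higher, both short of the rule after centring, as was Dnmt3b without E11.5 replicate 3 (0.997). Dnmt3a differed by -0.02. Tdg, the glycosylase that removes oxidized methylcytosine, differed by -1.76. In the list of Polycomb and H3K9 regulators 3 of 31 (9.68%) were higher and 2 (6.45%) lower, shares near those of all genes. The counts were 1 and 2 after centring on length, and none and 3 with MIR. Bmi1, a subunit of Polycomb repressive complex 1, had 48.1, 46.9 and 44.5 FPKM in MC and 15.4, 11.3 and 17 FPKM at E11.5. Phf19, a Polycomb-like protein, had 10.7, 8.59 and 8.78 FPKM in MC, 37.9, 43 and 40.5 FPKM in FC, and 21.3, 35 and 17.9 FPKM at E11.5, and MC minus FC was -2.01 (adjusted p = 4.6e-05).

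Of 27 tested imprinted genes, 3 were higher and 7 lower in MC than at E11.5, against 6.36% and 9.62% of all genes. Of the 27, 2 passed the filter through MC alone and 1 through E11.5 alone. Among the other 24, 2 were higher and 6 lower. Against E11.5, 10 of 32 were higher in MIR and 3 lower, where all genes had 2210 and 1239 of 12004. Of 33 tested against FC, 6 were higher in MC, a share near the 18.8% of all genes, and 12 were lower, against 16.1%. Phlda2, a growth-restraining gene expressed from the maternal allele in the placenta, had 1.16, 1.18 and 0.997 FPKM in MC, 135, 153 and 144 FPKM in FC, and 80.9, 139.6 and 102 FPKM at E11.5. It lies at chr7:143501545-143503150, and its differences were -5.74 from E11.5 and -6.10 ± 0.19 from FC (adjusted p = 9.5e-10). In the MIR libraries its difference from E11.5 was -6.20. H19, a noncoding RNA expressed from the maternal allele, had 10.7, 18.5 and 14.3 FPKM in MC, 36.6, 33.5 and 39.1 FPKM in FC, and 70.3, 40.1 and 25.4 FPKM at E11.5. Mest and Ascl2 were higher in MC, by 1.67 and 2.05 over E11.5 and by 1.68 and 0.75 over FC (adjusted p = 0.00028 and 0.0349). The Ascl2 call against FC was lost whichever library was left out (adjusted p from 0.0501 to 0.113).

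Most regulators of the cell cycle, like most genes, were within 2-fold of E11.5. Over all genes 6.36% were higher and 9.62% lower, the shares to set beside the counts that follow. Of 26 genes for cyclin-dependent kinase inhibitors, the Rb family, E2F factors and G1 cyclins and kinases, 4 were higher in MC and 1 lower, and 5 and 5 with MIR. Cdkn2a, which encodes p16Ink4a and p19Arf, had 29.1, 32.8 and 32 FPKM in MC and 10.3, 5.88 and 17.5 FPKM at E11.5, and Cdkn2b, which encodes p15Ink4b, had 2.54, 3.64 and 2.06 FPKM in MC and 0.547, 0.289 and 1.25 FPKM at E11.5. The Cdkn2b difference of 1.09 was 0.91 without E11.5 replicate 2 and 0.93 without MC replicate 2. Rb1, the retinoblastoma gene, was 1.45 higher. Cdkn1b, which encodes p27Kip1 and serves in male germ cell arrest, differed by -0.01, and Cdkn1a by -0.12. Ccnd3, cyclin D3, differed by -1.65, with 60.6, 42.4 and 41 FPKM in MC and 125, 176 and 118 FPKM at E11.5. Ccnd1, cyclin D1, differed by -0.07 from E11.5 and by -2.50 from FC (adjusted p = 2.8e-06). Of 45 replication genes, 2 were lower and none higher, with a median of -0.10, whereas scaling by housekeeping genes gave none lower and 2 higher, with a median of 0.11, and scaling by the sum none lower and 1 higher. In MIR 9 were lower than at E11.5. Of 44 mitotic genes, 2 were higher and none lower; none was called after centring on length, and with MIR 3 were lower and none higher. The proliferation marker Mki67 had 68.7, 80.8 and 84.7 FPKM in MC and 42.8, 41.3 and 32.8 FPKM at E11.5, a difference of 0.87, or 0.27 after centring on length.

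Replication-dependent histone genes, whose short transcripts lack a poly(A) tail, were lower in 13 of 19 tested, with a median of -1.71, and in 6 after centring on length. Of the 19, 6 had all MC values under 1 FPKM and passed the filter through E11.5 alone; 7 of the other 13 were lower. Their summed level was 23.3 to 31.2 FPKM in MC, and 116, 119 and 395 FPKM at E11.5, so that E11.5 replicate 3 stood apart. Hist1h2bc, an H2B gene, had 5.64, 2.61 and 3.96 FPKM in MC and 43.2, 51.7 and 42.2 FPKM at E11.5. Of 24 genes of the p53 and apoptosis list, 2 were higher and 3 lower, against 6.36% and 9.62% of all genes. Housekeeping scaling gave 4 and 2, scaling by the sum 3 and 2, and centring on length 1 and 2. Of the 24, 1 had all E11.5 values under 1 FPKM and passed the filter through MC alone. Among the other 23, 1 was higher and 3 were lower. In MIR 14 of 25 were higher than at E11.5 and 1 lower, with a median of 1.20, where all genes had 2210 and 1239 of 12004. The list summed to 919 to 962 FPKM in MC, 1487 to 1582 FPKM in MIR and 825 to 962 FPKM at E11.5. Pmaip1, which encodes the pro-apoptotic protein Noxa, had 23.4, 35.6 and 38.5 FPKM in MC, 1.06, 1.15 and 1 FPKM in FC, and 0.965, 0.42 and 0.91 FPKM at E11.5. It is the gene that passed the filter through MC alone, and it exceeded E11.5 by 4.14. It exceeded FC by 3.99 (limma adjusted p = 2.8e-06). Perp, a p53 target at cell junctions, differed by -1.89 from E11.5 and by -1.48 from FC (adjusted p = 0.00026). Because the titles call MC irradiated, these p53 target values would compare irradiated with non-irradiated cells if the titles are right.

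Part of the metabolic genes were lower, and the calls depended on the correction for length. Over all genes 9.62% were lower and 6.36% higher, or 6.91% and 4.99% after centring on length. Of 60 respiratory chain genes, 19 (31.7%) were lower in MC and none higher, with a median of -0.68. Of these, Ndufs5, whose values are uncertain as given below, passed the filter through E11.5 alone. Of the other 59 genes, 18 were lower. After centring on length 5 were lower, with a median of -0.06. Uqcrq, a subunit of complex III, had 212, 129 and 175 FPKM in MC, 105, 104 and 111 FPKM in FC, and 451, 472 and 543 FPKM at E11.5. Of 21 glycolysis genes, 5 were lower and 1 higher, and 7 and 1 after centring. Ldha, lactate dehydrogenase A, had 13.3, 9.28 and 11.46 FPKM in MC, 33.2, 34.3 and 33.3 FPKM in FC, and 50.7, 86.5 and 33.2 FPKM at E11.5. Pfkfb3, a regulator of phosphofructokinase, was the member that was higher, by 1.03 over E11.5 and by 0.77 over FC (adjusted p = 0.0025); without E11.5 replicate 1 or MC replicate 2 it was 0.98 or 0.97 over E11.5, and after centring on length it was not called. Of 20 genes of migration and adhesion, 3 were higher and 2 lower, 1 and 2 after centring on length, and with MIR 7 of 23 were higher and 2 lower; Fscn1, an actin-bundling protein, differed by -2.19 and Ror2, a Wnt5a receptor of migrating germ cells, by -1.84.

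Sertoli cell markers were present in the MC libraries. Of 22 such genes, 15 passed the filter, 8 of them through MC alone, and of the other 7, 3 were higher in MC than at E11.5. In the limma test 10 of 22 were higher in MC than in FC and none was lower, against 18.8% and 16.1% of all genes. That fit kept a gene that reached 1 FPKM in any 3 of its 12 libraries. Amh and Cst9 had a mean log2(FPKM + 1) of 0.04 and 0.15 in FC. These 2 genes passed this filter without any FC library, so it favoured calls in this direction. The summed level of the 22 markers was 171 to 273 FPKM in MC, 93.7 to 102 FPKM in FC and 61.2 to 69.7 FPKM at E11.5. No marker was at 0 in an MC library, against 7 to 10 at 0 in an E11.5 library. Amh, the anti-Müllerian hormone gene at chr10:80805243-80807648, had 15.1, 28 and 24.8 FPKM in MC, at most 0.0478 FPKM in FC and at most 0.201 FPKM at E11.5. Cst9, a cystatin of Sertoli cells, had 22.3, 34.9 and 45.1 FPKM in MC and at most 0.245 FPKM at E11.5. Sox9, the defining Sertoli transcription factor, reached 0.488, 1.06 and 0.903 FPKM in MC, at most 0.152 FPKM in FC and at most 0.587 FPKM at E11.5. The part of such transcripts in the values of Aldh1a1 and of other genes that Sertoli cells express was not tested. Macrophage markers went the other way, with summed levels of 6.65 to 9.01 FPKM in MC against 21.1 to 83.5 FPKM at E11.5; 4 of the 7 that passed the filter did so through E11.5 alone. None of 10 was called for MIR. Of the pregranulosa, mesenchyme and erythroid markers that passed the filter, none of 3, 2 and 3 met the rule. Of the Leydig and endothelial markers 1 of 4 and 1 of 5 were lower, against 9.62% of all genes. The Leydig gene, Insl3, had at most 0.551 FPKM in MC and so passed the filter through E11.5 alone. Taking MIR, 5 of 7 Leydig markers were higher than at E11.5 and 1 lower, and 2 of 3 pregranulosa markers were higher.

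**Figure D5:**
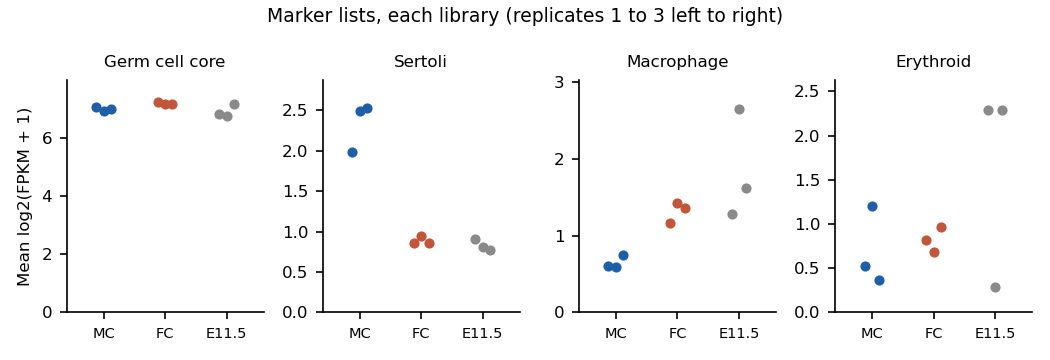
Mean log2(FPKM + 1) over the genes of 4 marker lists (y axes) in MC, FC and E11.5 libraries (x axes), 1 dot a library. Sertoli markers lie highest in MC and macrophage markers lowest in MC, and the erythroid markers of E11.5 replicate 2 lie under those of its other replicates.

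Among the largest differences outside these lists, several also passed the test between the sexes. Cthrc1, a secreted collagen triple-helix protein, had 52.2, 77.3 and 69 FPKM in MC, 3.15, 3.31 and 5.12 FPKM in FC, and 5.79, 2.71 and 2.67 FPKM at E11.5, and exceeded FC by 3.79 (adjusted p = 2.3e-07). Hesx1, a homeobox repressor, had 9.07, 20.2 and 19.9 FPKM in MC, at most 0.232 FPKM in FC and at most 0.177 FPKM at E11.5. Dgka, a diacylglycerol kinase, differed by 3.49 from E11.5 and by 2.48 from FC (adjusted p = 8.5e-07), and Mgst2, a glutathione transferase, by 3.37 and 3.38 (adjusted p = 3.5e-07). Apoe, the lipid carrier, had 26.4, 13.3 and 19.6 FPKM in MC, 52.8, 51.7 and 41.4 FPKM in FC, and 228, 298 and 275 FPKM at E11.5. Porcn, which acylates Wnt proteins, had 4.39, 3.33 and 2.79 FPKM in MC, 51, 52 and 46.7 FPKM in FC, and 37.4, 49.5 and 43.8 FPKM at E11.5, and MC minus FC was -3.51 (adjusted p = 5.5e-08). The metallothioneins Mt1 and Mt2 differed by -3.73 and -3.96 from E11.5, and Hspb1, a small heat shock protein, by -3.57.

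Some large differences belong to genes with near-identical copies, among which fragments can be divided, and their values are uncertain. Ndufs5, a complex I subunit, had at most 0.00431 FPKM in MC and 78.9, 94.1 and 81.1 FPKM at E11.5, and Rpl26, a ribosomal protein gene, 12.7, 18.3 and 57 FPKM in MC and 331, 359 and 534 FPKM at E11.5. Snora5c, a small nucleolar RNA chosen after its values were seen, was listed at 0 in every MC and FC library. It had 93.0, 51.4 and 86.6 FPKM in the non-irradiated E11.5 libraries. In the irradiated E11.5 libraries it was also listed at 0, and in MIR replicate 2 it had 23.7 FPKM, so its values separate neither the days nor their tables. By chromosome, 394 tested X-linked genes had a median difference of 0.03, against 0.01 for 10062 autosomal genes, with 8.63% and 6.34% called higher and 10.2% and 9.43% called lower.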

How the data were processed

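The values are FPKM that the authors deposited, with 23361 genes in each of 2 tables, 1 per embryonic day (5 libraries at E11.5 and 12 at E13.5). Per the labels' protocols, ribosomal RNA was removed and libraries were made with a NEBNext kit. The submitters' processing notes name mm10 and DESeq2; which aligner, counting program and annotation were used is not given in the sources used here. The tables were joined by symbol. The members and gene lists were chosen with earlier results of these data known, and some genes are not reported here and were left out of the lists.

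Libraries were scaled by the median of ratios over 9763 genes, and log2(FPKM + 1) was compared without a test between days. Within E13.5, the FPKM of MC and FC were compared as deposited, without that scaling, with limma 3.58.1 in R 4.3.3 (limma-trend, two-sided, 12 libraries in 1 fit, threshold 0.05, Benjamini-Hochberg over all genes tested); other steps used Python 3.11.15, numpy 2.4.6, pandas 2.3.3 and matplotlib 3.10.9. A gene entered a comparison where 3 or more libraries reached an FPKM of 1. Nothing in the labels ties replicates to separate animals or litters, and p-values therefore measure the spread between these samples only, which may be technical. Both procedures were tested on simulated data. Depth rests on the spacing of low values, of which 49.1% to 62.1% were whole multiples of 1 fragment within 0.1 (20% by chance), so reads were not recovered and count tests were not run.

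Named genes were the 12 largest differences in each direction, up to 6 members of each list and a fixed set; predicted, Rik and small RNA genes and joined symbols were left out of the first. Dmc1, Hormad1, Morc1, Spo11 and Stk31 lie outside this rule and were chosen after their values were seen. Coordinates are from GENCODE on GRCm38 and promoters from the RefSeq table of that build. Alternatives were other scalings, pseudocounts and filters, a larger size rule, no condition on overlap, leaving out each library, the replicate number as a block, fitting FC and MC alone, robust moderation and MIR in place of MC. The centring on length, and the filter of 2 libraries where 1 is left out, were chosen after seeing the data.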

Additional observations from a re-analysis of the deposited data

Results flagged for a closer look

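For 11 of the 185 named genes the MC libraries and the FC libraries lay on opposite sides of the E11.5 libraries without overlap, and the difference between MC and FC passed the limma test within E13.5. Higher in MC and lower in FC than at E11.5 were the Nodal targets Lefty1 (MC minus FC 5.61) and Lefty2 (6.32). The Y-linked genes Eif2s3y (7.13), Uba1y (6.60) and Uty (3.22) had the same pattern, and were near 0 in FC, as in cells without a Y chromosome. Lower in MC and higher in FC were the BMP targets Id1 (-4.55) and Id2 (-2.68), the transcription factor Gata2 (-4.24), the cohesin Rec8 (-3.76), the Polycomb-like protein Phf19 (-2.01) and the retinoic acid-binding protein Crabp2 (-1.96). MC and FC are compared with the same E11.5 libraries, so the position of E11.5 is common to both. The named genes were picked in part for large differences between MC and E11.5. No such count was made over all genes, so the 11 cannot be set against a share. In MC, 32.4% of all tested genes lay wholly above E11.5 and 31.0% wholly below.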

How the results depend on the processing

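No significance test separates the embryonic days from the tables. Against 708 genes higher and 1071 lower in MC than at E11.5, housekeeping scaling gave 1210 and 695, a difference of at least 2 gave 90 and 159, and MIR in place of MC gave 2210 higher; quantile normalization gave 764 and 937, a pseudocount of 0.1 gave 1057 and 1300, and no filter gave 726 and 1108. Leaving out 1 library gave 604 to 917 higher and 968 to 1223 lower. Of 123 named genes that were called, 49 met the rule in every one of 18 alternatives, 26 lost the call after centring on length and 51 with MIR in place of MC.

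Against 2419 genes higher and 2070 lower in MC than in FC, MIR in place of MC gave 4052 and 3776, the fit of FC and MC alone 3314 and 2831, quantile normalization 1950 and 1948, median of ratios scaling 2032 and 2310, and leaving out 1 library 1719 to 1975 and 1425 to 1675. Same-numbered MC and FC libraries had correlations of 0.0884, 0.0445 and -0.0507 between their deviations, so the numbers were not taken to pair the samples; with the replicate block 2411 genes were higher and 2103 lower. With MIR in place of MC the differences of called genes from E11.5 turned for Cdkn2a (-0.076), Id2 (0.45), Ldha (0.34), Mt1 (0.26) and Perp (0.62). Those from FC turned for Ascl2 (-0.38), Perp (0.94), Tdrd5 (-0.52) and Tet1 (-0.26). Brdt and Tex11, which did not pass the limma test between MC and FC, were lower than FC in MIR (-1.66 and -0.99). The cause of these changes was not tested. Depth limits genes near 1 FPKM most.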
